A study of Mus musculus with 5 samples.

Results

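The Wnt ligands, their Frizzled and LRP receptors, the secreted modulators of the pathway, the feedback inhibitor Axin2 and the nuclear effector Lef1 were followed in mouse retinas after form deprivation. The 42 genes were chosen by symbol, and all 42 were found among the 33636 genes of the count table, with 1 row each. They comprise 18 Wnt ligands, 10 Frizzled receptors, the co-receptors Lrp5 and Lrp6, 10 secreted modulators, and Axin2 and Lef1. RNA was measured by poly-A RNA-Seq in the retinas of wild-type male C57BL/6J mice, a common inbred strain, at postnatal day (P) 42. The 2 form-deprivation myopia (FDM) libraries came from right eyes that had worn a head-mounted diffuser goggle from P28 for 2 weeks, and the 3 control libraries came from the uncovered left eyes of the same cohort. The right eye was always the goggled one, so goggle and eye side cannot be told apart, and the control retinas came from animals that wore a goggle over the other eye. The mouse numbers of the count table place FDM 1 with Control 1 and FDM 3 with Control 3, while Control 2 has no partner here. The sample labels number the second FDM library 2, which would place it with Control 2, and the number of the count table, 3, is used below. What is said of mouse 3 therefore rests on that number, which the expression values do not settle.

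In the Wnt pathway, a secreted Wnt protein binds a Frizzled receptor on the cell surface. In the canonical branch the LRP5 or LRP6 co-receptor joins the complex, beta-catenin escapes breakdown and enters the nucleus, and TCF and LEF factors switch on target genes, among them Axin2, which feeds back to restrain the pathway. The secreted Frizzled-related proteins (Sfrp genes and Frzb) and Wif1 can bind Wnt proteins outside the cell, while Dickkopf proteins such as Dkk1, Dkk2 and Dkk4 act on the LRP co-receptors. In the retina the pathway is best known for the growth and barrier of the blood vessels, where the non-Wnt ligand Norrin (Ndp) signals through Fzd4, Lrp5 and Tspan12.

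The promoters of the only 2 members that passed the threshold of the comparison below, Sfrp5 and Dkk2, and that of Axin2, the feedback target, are shown because the first pair moved in the same direction and Axin2 did not pass the threshold. Each line gives the 250 bases before the start site, 5′ to 3′ on the gene's strand, from RefSeq annotation of GRCm38.p6. Capitals mark GC boxes (CCGCCC or its complement GGGCGG) and TATA motifs (TATAAA or TTTATA). The windows are chr19:42202253-42202502 (minus strand) for Sfrp5, chr3:132085042-132085291 (plus strand) for Dkk2 and chr11:108920099-108920348 (plus strand) for Axin2.
Sfrp5: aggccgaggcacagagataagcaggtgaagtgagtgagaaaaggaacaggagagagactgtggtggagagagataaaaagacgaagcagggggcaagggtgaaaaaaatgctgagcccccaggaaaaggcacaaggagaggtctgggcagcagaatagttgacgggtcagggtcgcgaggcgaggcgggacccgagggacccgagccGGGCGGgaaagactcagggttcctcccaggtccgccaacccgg
Dkk2: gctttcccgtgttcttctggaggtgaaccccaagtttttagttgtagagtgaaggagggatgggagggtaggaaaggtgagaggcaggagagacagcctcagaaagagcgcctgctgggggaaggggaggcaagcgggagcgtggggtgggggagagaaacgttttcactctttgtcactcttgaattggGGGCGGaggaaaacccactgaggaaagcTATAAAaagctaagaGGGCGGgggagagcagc
Axin2: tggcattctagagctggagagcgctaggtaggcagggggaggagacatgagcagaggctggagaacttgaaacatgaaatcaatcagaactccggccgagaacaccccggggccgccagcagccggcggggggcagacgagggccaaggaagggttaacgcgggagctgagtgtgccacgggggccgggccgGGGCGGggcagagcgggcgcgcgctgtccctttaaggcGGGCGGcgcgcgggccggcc
Sfrp5 held 1 GC box, Dkk2 held 2 GC boxes and 1 TATA motif, and Axin2 held 2 GC boxes. A GC box on either strand was present in 32.7% of all 32851 promoter windows, and a TATA motif in 12.4%. Among the 29 members that have a promoter window, 23 held a GC box and 6 a TATA motif. The TCF core letters CTTTGAT and CTTTGAA, searched on both strands, had no match in the 3 windows shown. Of the 29 members with a promoter in the table, Wnt5b and Wnt11 held CTTTGAT and Dkk1 held CTTTGAA, against 3.21% and 4.46% of all windows. These matches describe letters, not bound sites.

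The libraries held from 40599047 to 56534931 estimated counts, at which 3 counts, taken as the limit of detection, correspond to 0.0531 to 0.0739 counts per 1000000 counts of the library (CPM, for the genes below scaled with TMM factors). That limit and the counting intervals below cover counting error only. Rod markers summed to between 48701 and 61533 CPM and bipolar, amacrine, ganglion cell and Müller glia markers were also present in every library. Markers of neighbouring tissues differed between libraries. The summed level of 14 markers of the retinal pigment epithelium (RPE) was 104 and 94.6 CPM in FDM 1 and FDM 3 against 108, 328 and 380 CPM in Controls 1, 2 and 3, and 8 of the 14 passed the unadjusted threshold as lower in FDM eyes, and 11 of the 14 with the mouse as a block. The list includes the pigment genes Tyr, Tyrp1, Dct, Pmel and Mlana, which are not particular to the RPE. Dct alone gave 76.9 CPM in Control 3 against 18.7 in Control 2. The 10 lens markers found, of 11 listed, summed to 2026 CPM in FDM 3 and to between 3.21 and 19.8 CPM in the other libraries. In bulk retina, fewer cells of a type and less RNA per cell cannot be told apart.

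The comparison of FDM with control eyes asked which Wnt genes of the retina differed after form deprivation. Most did not pass the threshold: of the 33 members that had more than 10 counts in at least 2 libraries, 2 had an unadjusted p under 0.05 in edgeR's quasi-likelihood test, both lower in FDM eyes, the secreted modulators Sfrp5 and Dkk2. This is 6.06% of the members tested, against 1.16% of all 17432 genes tested that passed as lower in FDM eyes, 0.453% as higher and 1.61% in either direction. With the mouse as a block, Fzd1 joined them, giving 3 of 33 against 7.23% of all genes, and in DESeq2 only Sfrp5 passed, 1 of 33 against 0.987% of all genes (0.207% higher and 0.78% lower). No member (0 of 33) passed after Benjamini-Hochberg adjustment over all genes, and neither did any other gene (0%). With the mouse numbers of the count table as the block, 0.31% of all genes but 0 members did so, and in DESeq2 0.0172% and 0 members. With the mouse numbers of the sample labels as the block, Sfrp5 passed (adjusted p = 0.0368 from edgeR). That fit leaves 1 residual degree of freedom and gave 439 of the 17432 genes an unadjusted p under 0.05. The share of all genes that passed after adjustment was not counted for it, so the adjusted call of Sfrp5 has no background here. The log2 fold changes of the members had a median of -0.03, beside -0.01 for all genes tested, with 14 above and 19 below 0. Of the 33, 27 (81.8%) lay within 0.2 of 0 on the log2 scale, as did 83.4% of all genes. For 4 members (12.1%), Wnt5b, Fzd2, Sfrp5 and Dkk2, the FDM values both lay under the lowest control, an arrangement found in 6.67% of all genes, and above every control for 0 of the tested members, against 3.97% of all genes. At 2 against 3 libraries an exact permutation test over samples cannot give a two-sided p below 0.1, so the p-values here are those of the fit across all genes. The separate retinas are the replicates, and the eyes of one mouse are not independent of each other.

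**Figure D1:**
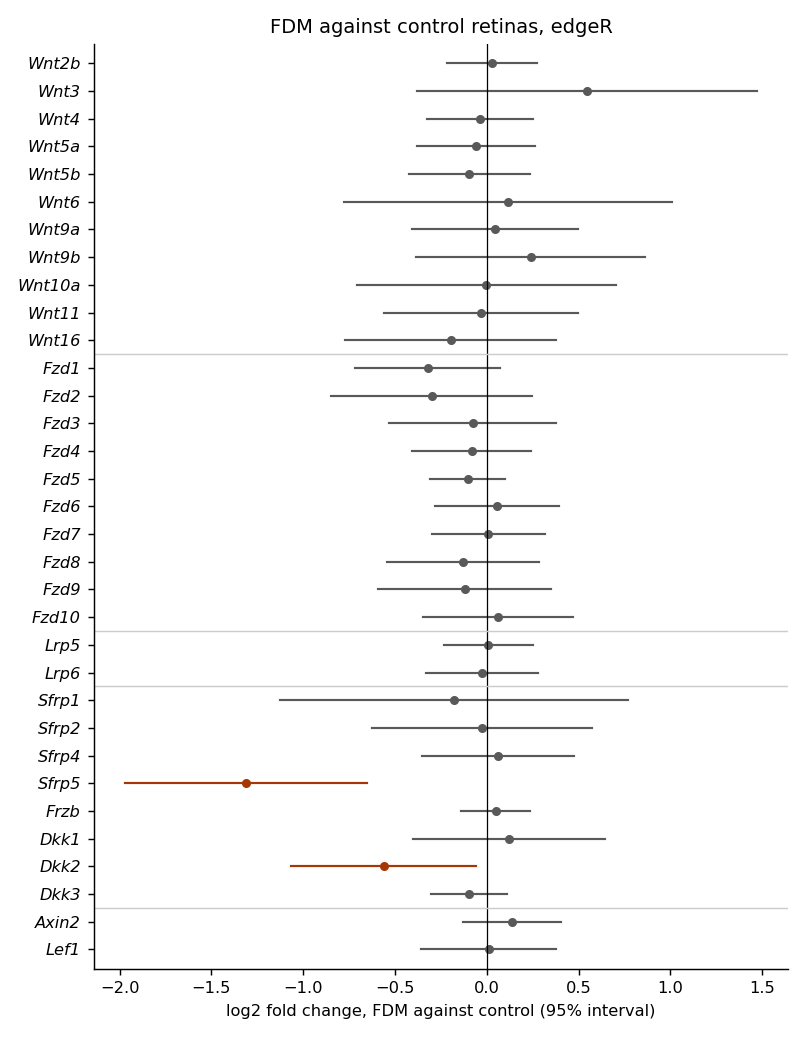
Log2 fold change of FDM against control eyes for the 33 tested genes (points) with the 95% interval of the edgeR fit (lines); grey rules separate ligands, Frizzleds, LRP co-receptors, secreted modulators, and Axin2 with Lef1. The intervals of Sfrp5, from -1.97 to -0.65, and Dkk2, from -1.07 to -0.06, drawn in brown, lie below 0, while the other 31 include 0.

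Among the ligands, 11 of 18 were tested and 0 passed the threshold in either direction. Their median log2 fold change was -0.00, with values between -0.20 for Wnt16 and 0.54 for Wnt3. To compare genes with each other, CPM was divided by the length of each gene's exons in kilobases (CPM per kb). On this scale Wnt2b, a ligand known from the ciliary margin and the RPE of the eye, was the most abundant ligand, from 2.67 to 3.04 CPM per kb over the 5 libraries. Wnt4 followed at 1.304 to 1.499 and Wnt5b, a ligand mostly of the non-canonical branch, at 1.19 to 1.34, and the ranges of these last genes overlap. Wnt2b made up between 30.6% and 35.0% of the summed level per length of all 18 ligands in every library, and the sum itself was 8.87 to 9.11 CPM per kb in FDM and 8.56 to 8.98 in control eyes.

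Wnt2b stood at 12.6 CPM in the FDM eye and 11.2 in the control eye of mouse 1, at 12.2 and 12.6 in mouse 3, and at 12.8 in Control 2, so that the FDM values lay inside the range of the controls. Its log2 fold change was 0.03 (standard error (SE) 0.10, 95% interval -0.22 to 0.27). Wnt4 had 5.47 and 6.11 CPM in FDM eyes against 6.29, 5.89 and 5.69 in control eyes, also with overlapping groups. Its log2 fold change was -0.04 (95% interval -0.33 to 0.25). Wnt5b had 3.16 and 3.18 CPM in FDM eyes against 3.26, 3.54 and 3.35 in control eyes. The groups of Wnt5b did not overlap, but its log2 fold change was only -0.09 with an SE of 0.14 (edgeR unadjusted p = 0.521). The other 8 tested ligands, Wnt3, Wnt5a, Wnt6, Wnt9a, Wnt9b, Wnt10a, Wnt11 and Wnt16, had unadjusted p from 0.209 to 0.996 in edgeR and mean levels from 0.111 to 0.682 CPM per kb. Wnt9b, also picked from its values, differed more between mice than between eyes, with 3.92 and 3.81 CPM in FDM 1 and Control 1, 2.85 and 2.67 in FDM 3 and Control 3, and 2.16 in Control 2. Wnt3, singled out after its values were seen, had 20 and 19 counts in FDM eyes and 9, 24 and 10 in control eyes. Control 2 of Wnt3 lay with the FDM eyes, and the FDM eyes exceeded the controls by 0.54 on the log2 scale (SE 0.39, edgeR unadjusted p = 0.209). Without Control 2 it was 0.97 (unadjusted p = 0.0417 from edgeR), in a fit where 2.04% of all genes passed as higher. Leaving out any other library gave 0.37 to 0.66, with unadjusted p from 0.259 to 0.451 in edgeR.

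**Figure D2:**
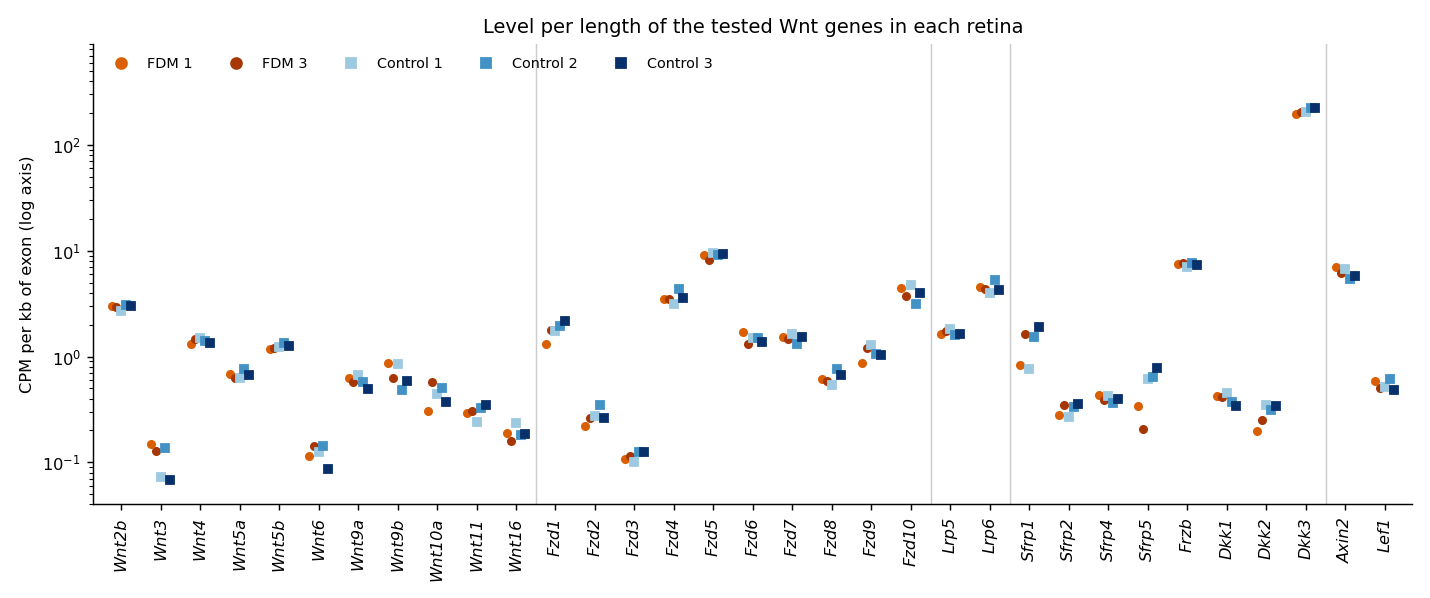
Level of the 33 tested genes in CPM per kb of exon (log axis), with 1 point for each of the 5 retinas (circles FDM, squares control). Dkk3 lies near 200 in every library and the ligands at or below 3.04, and for Sfrp5 and Dkk2 both circles lie below the squares.

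The 7 ligands below the count filter were Wnt1, Wnt2, Wnt3a, Wnt7a, Wnt7b, Wnt8b and Wnt10b. Apart from Wnt7b they had between 0 and 11 counts in every library, so that a difference was hardly detectable at this depth. Wnt7b, a canonical ligand, had 68 counts in FDM 3 (exact Poisson 95% interval 52.8 to 86.2), 2 each in FDM 1, Control 1 and Control 2, and 0 in Control 3. The signal of Wnt7b was therefore that of 1 library, and its level of 0.730 ± 0.967 CPM in FDM eyes (SD, n = 2) had an SD above the mean. FDM 3 was also the library whose lens markers summed to 2026 CPM, with Cryaa, a lens crystallin, at 978 CPM against 0.115 to 6.12 elsewhere. The part of lens RNA in the Wnt7b value was not tested. Wnt7a, its close relative, had 4 and 7 counts in FDM 1 and FDM 3 and 0, 2 and 1 in the controls, with overlapping counting intervals such as 2.81 to 14.4 for FDM 3 and 0.242 to 7.22 for Control 2. In a fit of all genes with at least 1 count, in which 2.02% of genes passed (0.564% higher and 1.46% lower), the unadjusted p was 0.00206 for Wnt7b and 0.0301 for Wnt7a (adjusted p = 1.0 for both, edgeR).

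All 10 Frizzled receptors and both LRP co-receptors were tested, and 0 of the 12 passed the threshold. The Frizzleds had a median log2 fold change of -0.09, with 3 above and 7 below 0. Fzd5, a receptor with known roles in eye development, was the most abundant at 8.19 to 9.53 CPM per kb and made up 36.9% to 39.0% of the summed level per length of the Frizzleds. Lrp6 (4.001 to 5.34 CPM per kb), Fzd10 (3.17 to 4.71) and Fzd4 (3.12 to 4.35) came next, with ranges that overlap one another.

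Fzd5 stood at 63.3 CPM in the FDM eye and 65.9 in the control eye of mouse 1, at 56.7 and 64.9 in mouse 3, and at 62.6 in Control 2. FDM 3 was the lowest library and FDM 1 lay among the controls, with a log2 fold change of -0.10 and a 95% interval of -0.31 to 0.10 (edgeR unadjusted p = 0.269). Lrp6 had 62.1 and 59.7 CPM in FDM eyes against 54.7, 73.0 and 58.3 in control eyes, with both FDM eyes inside the range of the controls (log2 fold change -0.03, 95% interval -0.33 to 0.28). Fzd10 had 14.5 and 12.3 CPM against 15.3, 10.3 and 12.9, again with overlap (log2 fold change 0.06, 95% interval -0.35 to 0.47). Fzd2 had 0.807 and 0.956 CPM in FDM eyes against 1.002, 1.28 and 0.969 in control eyes. The gap of Fzd2 between FDM 3 and Control 3 was within their counting error at 46 counts each, and its log2 fold change of -0.30 (SE 0.23) had an edgeR unadjusted p of 0.237. The other 7 Frizzleds and Lrp5 had log2 fold changes from -0.32 for Fzd1 to 0.06 for Fzd6.

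Fzd1 was singled out after its values were seen, because it passed the unadjusted threshold when the mouse was fitted as a block. It had 5.56 CPM in FDM 1 and 7.26 in Control 1, and 7.53 in FDM 3 and 9.10 in Control 3, with 8.19 in Control 2. In each mouse the FDM eye of Fzd1 was thus the lower one, by 0.38 and 0.27 on the log2 scale, although FDM 3 lay above Control 1. Without the block the unadjusted p of Fzd1 was 0.0939, and with it 0.0168 (adjusted p = 0.619, both from edgeR), in a fit that called 3.67% of all genes lower. With the label numbers as the block the call was lost (log2 fold change -0.25, unadjusted p = 0.155 from edgeR), and leaving out single libraries moved the log2 fold change from -0.56 without FDM 3 to -0.12 without FDM 1.

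In the Norrin system, 0 of the 4 signaling genes passed the threshold. Fzd4 stood at 23.3 and 23.7 CPM in FDM eyes and at 20.99, 29.3 and 24.3 in control eyes, with a log2 fold change of -0.08 (95% interval -0.41 to 0.24). Lrp5 had 15.9 and 17.0 CPM against 17.8, 15.4 and 15.8, and a log2 fold change of 0.01 (95% interval -0.23 to 0.25). Ndp, the Norrin gene, had 6.51 and 6.59 CPM against 6.84, 7.37 and 7.60, with both FDM eyes lowest (log2 fold change -0.15, unadjusted p = 0.220 from edgeR). Tspan12, the co-activator, had a log2 fold change of -0.10 (unadjusted p = 0.595 from edgeR). Of 8 endothelial genes of the retina that depend on this system, such as Cldn5, Sox17, Slc38a5 and Plvap, 0 of 8 passed the threshold. Their log2 fold changes ran from -0.26 to 0.13, with a median of -0.05. The median took no account of the direction in which each gene depends on the system, so it is no measure of its activity. The 7 general endothelial markers gave 0 of 7.

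The secreted modulators held both calls. Of the 10, 8 were tested, 2 passed as lower in FDM eyes and 0 as higher, with a median log2 fold change of -0.06. Sfrp5 is a secreted Frizzled-related protein known to be expressed by the RPE. The gene lies on chromosome 19 at 42197971 to 42202252 (minus strand, GRCm38). It had 28 counts in the FDM eye and 47 in the control eye of mouse 1, 19 and 70 in mouse 3, and 69 in Control 2. Scaled to library size this gave CPM values of 0.646 and 0.395 in FDM eyes against 1.18, 1.21 and 1.47 in control eyes, so that both FDM eyes lay well below all controls, at 0.520 ± 0.177 (SD, n = 2) against 1.29 ± 0.163 (SD, n = 3). Sfrp5 fell by 1.31 on the log2 scale, with an SE of 0.28 (edgeR unadjusted p = 0.00208, adjusted p = 1.0). It passed the unadjusted threshold in all 14 alternatives, with log2 fold changes from -1.70 without FDM 1 to -0.99 without FDM 3. The adjusted p over these ranged from 0.0368, with the mouse numbers of the sample labels as a block, to 1.0, and was 0.276 with those of the count table (all from edgeR, DESeq2 or limma).

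The RPE markers moved with Sfrp5 in part. In mouse 3 the eyes differed by -1.67 on the log2 scale for Sfrp5 (0.395 CPM in the FDM eye against 1.47) and by -2.01 for the summed RPE markers (94.6 against 380 CPM). In mouse 1 the eyes differed by -0.78 for Sfrp5 (0.646 against 1.18 CPM) and by -0.06 for the summed RPE markers (104 against 108 CPM). Control 1 therefore had RPE markers as low as the FDM eyes and Sfrp5 near the other controls. If FDM 3 is set against Control 2 instead, as the labels number it, Sfrp5 compares at 0.395 with 1.21 CPM and the RPE sum at 94.6 with 328 CPM. The counting intervals of the eyes of mouse 1 overlap, at 18.6 to 40.5 for the 28 counts and 34.5 to 62.5 for the 47 counts. Rpe65, the isomerase of the visual cycle, stood at 5.49 and 4.51 CPM in FDM 1 and FDM 3 and at 5.36, 27.9 and 23.6 in the controls, and none of the 14 RPE markers was at 0 in any library. The part of RPE RNA in the Sfrp5 result was not tested.

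**Figure D3:**
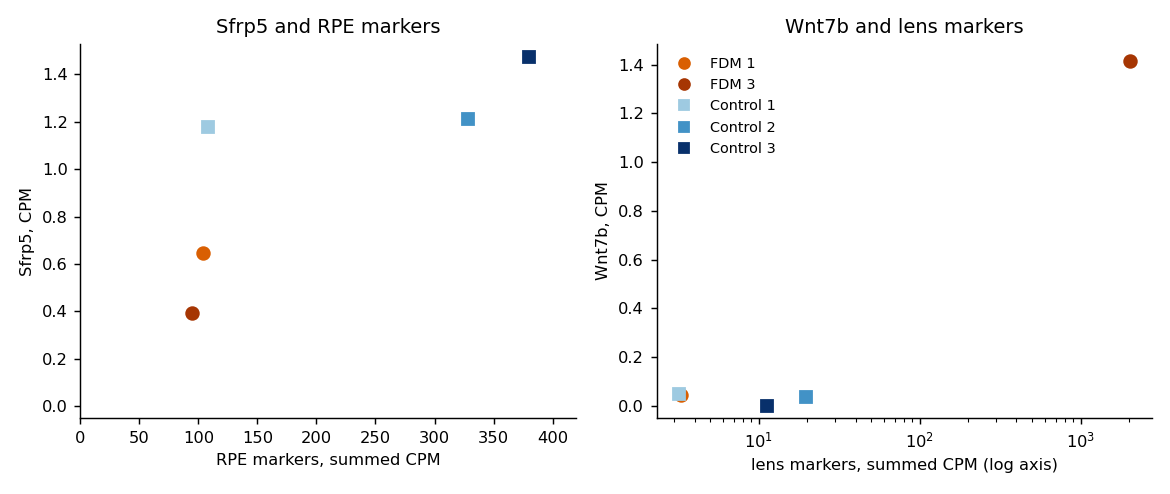
Left, Sfrp5 (CPM) against the summed level of 14 RPE markers (CPM); right, Wnt7b (CPM) against the summed level of 10 lens markers (CPM, log axis), with 1 point for each retina. Control 1 shares the low RPE sum of the FDM eyes, at 108 CPM, but not their low Sfrp5, and FDM 3 stands alone in both lens markers and Wnt7b.

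Dkk2, a Dickkopf protein of the LRP co-receptors, lies on chromosome 3 at 132085292 to 132180304 (plus strand, GRCm38). It had 32 counts in the FDM eye and 52 in the control eye of mouse 1, 45 and 60 in mouse 3, and 66 in Control 2. At 0.738 and 0.936 CPM the FDM eyes lay below the controls at 1.30, 1.16 and 1.26, or 0.837 ± 0.140 (SD, n = 2) against 1.24 ± 0.0749 (SD, n = 3). Dkk2 fell by 0.56 on the log2 scale, with an SE of 0.22 (edgeR unadjusted p = 0.0338, adjusted p = 1.0). In both pairs the FDM eye was the lower one, by 0.74 in mouse 1 and 0.40 in mouse 3. The call was lost without FDM 1 (log2 fold change -0.40, unadjusted p = 0.218 from edgeR), without FDM 3 (unadjusted p = 0.0514), without Control 1 (unadjusted p = 0.0660) and without Control 3 (unadjusted p = 0.0718). It was also lost in DESeq2 (unadjusted p = 0.122) and with the label numbers as a block (unadjusted p = 0.0710 from edgeR). Fibroblast markers summed to 19.4 and 28.5 CPM in FDM eyes and to 21.9, 43.2 and 56.3 CPM in control eyes. Of the 6 tested, 1 passed as lower in FDM eyes (1.16% of all genes) and 4 with the mouse as a block (3.67%). The fibroblast sum differed between the eyes by -0.17 on the log2 scale in mouse 1 and by -0.98 in mouse 3. The highest level of Dkk2 was that of Control 1, where the fibroblast sum was low. Lum, a fibroblast marker, was at 0 in FDM 1. The part of fibroblast RNA was not tested.

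**Figure D4:**
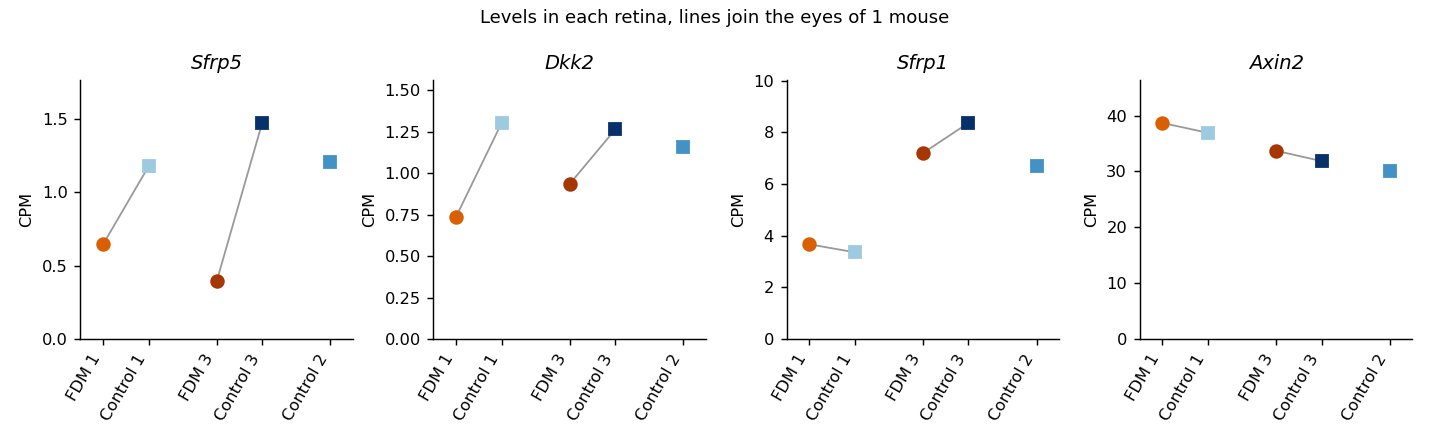
Levels of Sfrp5, Dkk2, Sfrp1 and Axin2 in CPM (axes from 0) in the 5 retinas, circles FDM and squares control, with lines joining the eyes of 1 mouse. The lines of Sfrp5 and Dkk2 rise from the FDM to the control eye in both mice, while Sfrp1 separates mouse 1, at 3.36 and 3.67, from the other libraries.

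The most abundant modulator was Dkk3, a divergent Dickkopf family member, at 198 to 224 CPM per kb. It alone made up between 94.95% and 95.30% of the summed level per length of the 10 modulators. Dkk3 had 666 and 694 CPM in FDM eyes and 682, 747 and 753 in control eyes, with FDM 3 above Control 1. The difference was -0.10 on the log2 scale (95% interval -0.30 to 0.11). Frzb, a Frizzled-related protein, followed at 7.06 to 7.65 CPM per kb and had the lowest coefficient of variation of the tested members, 3.38% over the 5 libraries, with 24.4 and 24.7 CPM in FDM eyes against 22.9, 24.8 and 23.6 in control eyes (log2 fold change 0.05, 95% interval -0.14 to 0.23).

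Sfrp1, next in level per length, differed between mice more than between eyes. It had 3.67 CPM in FDM 1 and 3.36 in Control 1, 7.19 in FDM 3 and 8.36 in Control 3, and 6.70 in Control 2. Both FDM eyes lay inside the range of the controls, and the log2 fold change of -0.18 had a standard error of 0.40 (unadjusted p = 0.670 from edgeR). The mean of the eyes of mouse 3 exceeded that of mouse 1 by 1.12 on the log2 scale, a difference reached in size by 0.86% of all genes tested, while the eyes of a mouse differed by 0.12 and -0.21. Ganglion cell markers had their lowest sums in the same mouse, at 578 CPM in FDM 1 and 541 in Control 1 against 641 to 682 in the others. Most of that sum was Nefl, and Rbpms was lowest in Control 2. Fibroblast markers (19.4 and 21.9 CPM against 28.5 to 56.3) and lens markers (3.30 and 3.21 against 11.4 to 2026) were lowest in mouse 1 too. So was the sum of the Müller glia markers, at 3637 and 3620 CPM against 3782 to 3974. Most of it was Glul, which was lowest in Control 2, at 2391 CPM against 2423 in FDM 1 and 2431 in Control 1. Of the Müller glia markers only Apoe and Abca8a shared the order of their sum. The sum of the ciliary and iris epithelium markers was also lowest in mouse 1, at 199 and 203 CPM against 209 to 245. Most of that sum was Aqp1, at 125 and 132 CPM in FDM 1 and Control 1 against 137 to 145 in the others. Besides Aqp1 only Wfdc1 shared this order, and FDM 3 lay below FDM 1 for Col9a1, Zic1 and Zic2. The part of any of these cell types was not tested. With 2 mice that have both eyes here, no test of a difference between mice was made, and this gene was chosen from its values. Sfrp2, Sfrp4 and Dkk1 had log2 fold changes from -0.03 to 0.12 at 0.316 to 0.400 CPM per kb. Dkk4 had 1 to 3 counts in each library, and Wif1 had 1 and 8 counts in FDM eyes and 0, 23 and 7 in control eyes, both below the count filter.

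Axin2, a widely used readout of canonical signaling, stood at 38.7 CPM in the FDM eye and 36.9 in the control eye of mouse 1, at 33.7 and 31.9 in mouse 3, and at 30.1 in Control 2. FDM 1 was highest, FDM 3 lay below Control 1, with a log2 fold change of 0.14 and a 95% interval of -0.13 to 0.40 (edgeR unadjusted p = 0.267). The eyes of a mouse differed by 0.07 and 0.08 on the log2 scale, each in favour of the FDM eye. Lef1, a nuclear partner of beta-catenin, had 5.17 and 4.39 CPM in FDM eyes against 4.56, 5.39 and 4.25 in control eyes, with overlap (log2 fold change 0.01, 95% interval -0.36 to 0.38). A further 83 genes of the pathway were listed, and of the 80 tested 0 passed the threshold, with a median log2 fold change of -0.00 and a smallest unadjusted p of 0.115 (Reck, a cofactor of Wnt7 signaling, from edgeR). By role, 0 of 20 genes of Wnt secretion, R-spondins and ligand modifiers passed, and 0 of 28 of the Dishevelled proteins, destruction complex and TCF factors. The same held for 0 of 19 non-canonical genes and 0 of 12 general target genes, a list that includes Axin2 and Lef1. Ctnnb1, which encodes beta-catenin, had 330 and 349 CPM in FDM eyes against 317, 376 and 365 in control eyes. In the fit with a mouse term, 3 of the 80 passed as higher (Apc, Amer1 and Reck) and 2 as lower (Wls and Dact3), against 3.57% and 3.67% of all genes.

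Within the 2 mice with both eyes, the tested members varied about 0 in both directions. In mouse 1, 16 of the 33 were higher and 17 lower in the FDM eye (log2 CPM with 0.1 added), and in mouse 3, 13 were higher and 20 lower. The FDM eye was lower in both mice for 10 members (30.3%), the share also found among all genes (30.3%), and higher in both for 6 (18.2%), against 24.7% of all genes. For the other 17 the mice differed in sign. Of the 33, 27 in mouse 1 and 28 in mouse 3 lay within 0.3 of 0. Sfrp5, Dkk2 and Fzd1 were lower by more than 0.2 in each mouse, and Wnt3 was higher by 0.79 and 0.67, although against Control 2 the FDM 3 value of Wnt3 was the lower one, 0.395 against 0.421 CPM. Wnt10a and Fzd9, picked for their opposite signs, differed between mice: Wnt10a went -0.48 in mouse 1 and 0.56 in mouse 3, and Fzd9 -0.54 and 0.20.

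**Figure D5:**
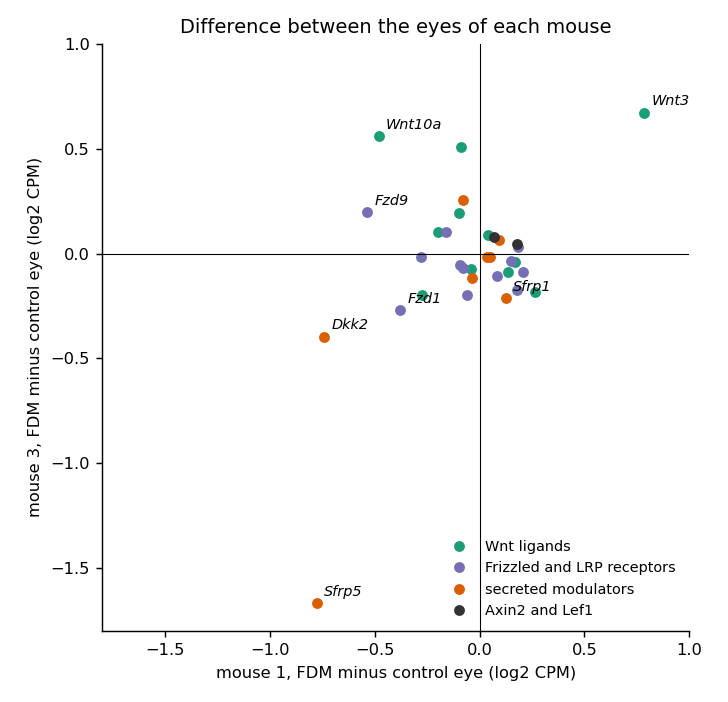
Difference between the FDM and the control eye (log2 CPM) in mouse 1 (horizontal) and mouse 3 (vertical) for the 33 tested genes, coloured by role. Most points lie within 0.3 of 0 on both axes, and Sfrp5 lies farthest down, at -0.78 and -1.67.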

How the data were processed

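Retinal RNA of 5 libraries was analysed, 2 FDM and 3 control, grouped by the sample labels. The authors trimmed reads with Trimmomatic 0.39 and quantified them with Salmon 1.10.1 on GRCm38, as named in the submitters' processing notes and the paper, and deposited the estimated counts per gene, which are already whole and were used unrounded. The authors also deposited a signal of DESeq2-normalized counts with a factor for each gene and library. They left out 1 FDM library for its read duplication. Columns of no sample numbered 0.

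The filter kept genes exceeding 10 counts in 2 or more libraries, and the whole table was tested in edgeR 4.0.16 (R 4.3.3) with TMM factors and the quasi-likelihood test, without covariates, at the study's unadjusted p of 0.05. The SE was taken as the size of the log2 fold change over the root of its F statistic. DESeq2 1.42.0 and limma 3.58.1 served as alternatives. Exon lengths and positions came from GENCODE M21 (GRCm38), where 33586 of 33636 identifiers were found. The kit does not mark strand, and 8 members share exon bases with another annotated gene, in each case an antisense one, Axin2 and Fzd5 among them, whose reads cannot be told apart.

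Eyes were paired, as right and left eyes of 1 animal, by the mouse numbers in the count table's column names. Deviations from the group means across 17432 genes correlated at 0.255 for FDM 1 with Control 1, at 0.107 for FDM 3 with Control 3 and at 0.165 for FDM 3 with Control 2, its partner by the sample labels. With 2 FDM libraries their deviations mirror each other, so these values are not independent and do not settle the partner of FDM 3, and both numberings were fitted as a block. The scripts were tested on simulated data. The members and gene lists were chosen with earlier results of these data known. Values in every library are given for members that passed, that did not overlap or that were among the 3 most abundant per length of their role, and for Axin2 and Lef1.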

Additional observations from a re-analysis of the deposited data

How the results depend on the processing

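Of the 460 refits of single members, 450 stayed on the same side of the threshold, 0 reversed a called value, and the others concern Dkk2 (6 times lost), Fzd1 (3 times gained) and Wnt3 (once gained). The number of members called, 2, was 1 in DESeq2, 1 with the replicate block of the label numbers and 4 without a count filter, where Wnt7a and Wnt7b joined, and it ran from 1 to 3 on leaving out single libraries. Of these calls, 0 were higher in FDM eyes, except 2 without a count filter and from 0 to 1 on leaving out single libraries, and 2 were lower, but 1 in DESeq2, 1 with the label block and from 1 to 2 on leaving out single libraries. With the replicate block of the count table it was 3, Fzd1 added, and that pairing changed no other member's call. The number of all genes called, 281, was 172 in DESeq2, 498 without a count filter, 439 with the replicate block of the label numbers and 1261 with the block of the count table, and from 146 to 944 on leaving out single libraries, lowest without Control 3 and highest without Control 1. It was 165 without FDM 1 and 550 without Control 2, where 355 were higher and 195 lower. RLE factors, library totals, the stricter filter and limma on the authors' normalized counts kept the same 2 members. Where 1 FDM library remained, it was assumed to vary like the controls. Either block leaves 1 residual degree of freedom. The cause of these shifts was not tested, and the depth limits what can be said of members with low counts, among them Sfrp5 (19 to 70 per library) and Dkk2 (32 to 66).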

Other observations

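Wls, which carries Wnt proteins to the cell surface and is no member of the set above, was singled out after its values were seen. It had 4.45 CPM in the FDM eye and 4.41 in the control eye of mouse 1, 5.72 and 10.7 in mouse 3, and 7.84 in Control 2, so that Control 1 was the lowest library. The eyes differed by -0.59 on the log2 scale (edgeR unadjusted p = 0.121), and by -0.49 with the mouse as a block (unadjusted p = 0.0332, adjusted p = 0.654 from edgeR). Notum, a secreted enzyme that inactivates Wnt proteins, had 28 and 46 counts in FDM eyes and 30, 76 and 68 in control eyes, with Control 1 between the FDM libraries. The RPE markers were low in the same 3 libraries for both genes, FDM 1, FDM 3 and Control 1. FDM 3 had the lowest RPE sum, 94.6 CPM, but the highest Wls and Notum of the 3. Fibroblast markers were low there too, at 19.4, 28.5 and 21.9 CPM against 43.2 and 56.3. By smaller margins, so were the ciliary and iris epithelium, ganglion cell, amacrine and Müller glia sums. Of the amacrine markers only Pax6 shared this order, at 341, 346 and 339 CPM against 438 and 395, and Tfap2a went the other way. Of the Müller glia markers only Apoe and Abca8a shared it, and of the ganglion cell markers only Nefl and Pou4f2. The part of any of these tissues or cell types was not tested. Skeletal muscle markers summed to 86.4 CPM in Control 3 and to between 10.6 and 12.0 CPM in the others. Of the 5 tested, 0 passed the threshold, against 1.61% of all genes. With the mouse as a block 5 of 5 passed as lower in FDM eyes, against 3.67% of all genes. The muscle sum differed between the eyes by 0.05 on the log2 scale in mouse 1 and by -2.85 in mouse 3.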
